A study of Mus musculus with 15 samples.

Results

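A set of 30 genes that are known for satellite glia and Schwann cells was followed in RNA of sorted mouse sensory neurons. The genes were chosen by symbol, and 29 of the 30 were measured, among 19938 genes in all. They comprised 9 genes of satellite glia, 8 genes of the glial lineage (transcription factors and other proteins of the Schwann cell line, not all exclusive to it) and 12 of 13 genes of myelin. Prx was not analysed here. Of the 29 genes, 28 had 1 probe set, and Glul had more than 1, with differences of the same direction in both comparisons of paw with muscle neurons.

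The neurons came from lumbar dorsal root ganglia, levels 2 to 5 on the experimental side, of C57BL/6 mice in which the CGRP promoter drives green fluorescent protein (CGRP, the calcitonin gene-related peptide, is found in many nociceptors). All groups carried this transgene and received the retrograde tracer wheat germ agglutinin coupled to Alexa Fluor 647 5 days before death, in the saphenous nerve or the gastrocnemius muscle. Ganglia were dissociated to single cells, cells over 26.9 µm were sorted by tracer and green fluorescence, and 50 ng of amplified RNA per sample was hybridised. The 5 groups had 3 arrays each, which the study's design text calls biological replicates. Saline paw and CFA paw were CGRP-positive neurons that project to skin, after saline or complete Freund's adjuvant (CFA), an emulsion of killed mycobacteria that causes inflammation. Saline muscle, CFA muscle and acid muscle were CGRP-negative neurons that project to muscle, after saline, CFA or acid. A paw and a muscle group thus differ in the target tissue, the CGRP gate, the site of injection and the site of the tracer, and these cannot be told apart. No group was sorted for glia, so each value below is the signal for a glial gene in RNA of a sort aimed at neurons. In such bulk samples, fewer cells of a type and less RNA per cell cannot be told apart.

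Each neuron body in a sensory ganglion is wrapped by satellite glia, which take up glutamate and potassium and are joined by gap junctions. Axons of large sensory neurons are wrapped by Schwann cells, whose membrane is rich in cholesterol and galactolipids and is compacted by proteins such as myelin basic protein. Both cell types descend from the neural crest under the transcription factor Sox10, and Egr2 (Krox20) turns on the myelin genes in Schwann cells. Several of these genes are not exclusive to glia: Scn7a, Fasn, Dbi and Sparc are also expressed by other cells, neurons or connective tissue among them.

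The deposited values are on a log scale, taken as log2, and a difference of 1 then means a factor of 2. Values spread more widely over genes on 5 paw arrays (SD 1.66 to 1.80) than on the muscle arrays (1.28 to 1.55), and saline paw replicate 1, with 1.42, was like the latter. That array lay with the muscle arrays on the first principal component (−22.3, against 32.5 to 58.1 on the other paw arrays and −50.5 to −5.67 on the muscle arrays). Its part is given for some of the results below, not for all of them. The median of 16 neuron markers was 7.54 on saline paw replicate 1, 8.44 to 8.66 on the other paw arrays and 6.78 to 7.85 on the muscle arrays. A dim limit of 2.44 was set so that 95% of 1194 receptor genes of the olfactory and vomeronasal families had lower mean levels. The defining sensory neuron markers Avil, Isl1, Pou4f1 and Prph had group means above it in all 5 groups (4.51 at the lowest), and macrophage markers had array medians of 2.04 to 2.48, around it.

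Most of the glial genes gave signal in every group. By the mean over the 15 arrays all 29 lay above the dim limit, as did most of all genes (6519 of 19938 lay under it). Of the 29 genes, 25 had group means above the dim limit in all 5 groups. The like share of all genes is not given here, so the 25 are not read as a trait of glial genes. The exceptions were Gfap, an intermediate filament of activated glia, with a mean of 2.41 in CFA paw, Cdh19, a cadherin of the Schwann cell lineage, with 2.18 in saline paw, Mobp, a myelin-associated protein, with 2.40 in saline paw and 2.41 in CFA paw, and Ugt8a, the enzyme that makes the galactolipids of myelin, with 2.43 in saline paw. The map of all 29 genes shows the myelin genes high and low together on the muscle arrays.

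**Figure D1:**
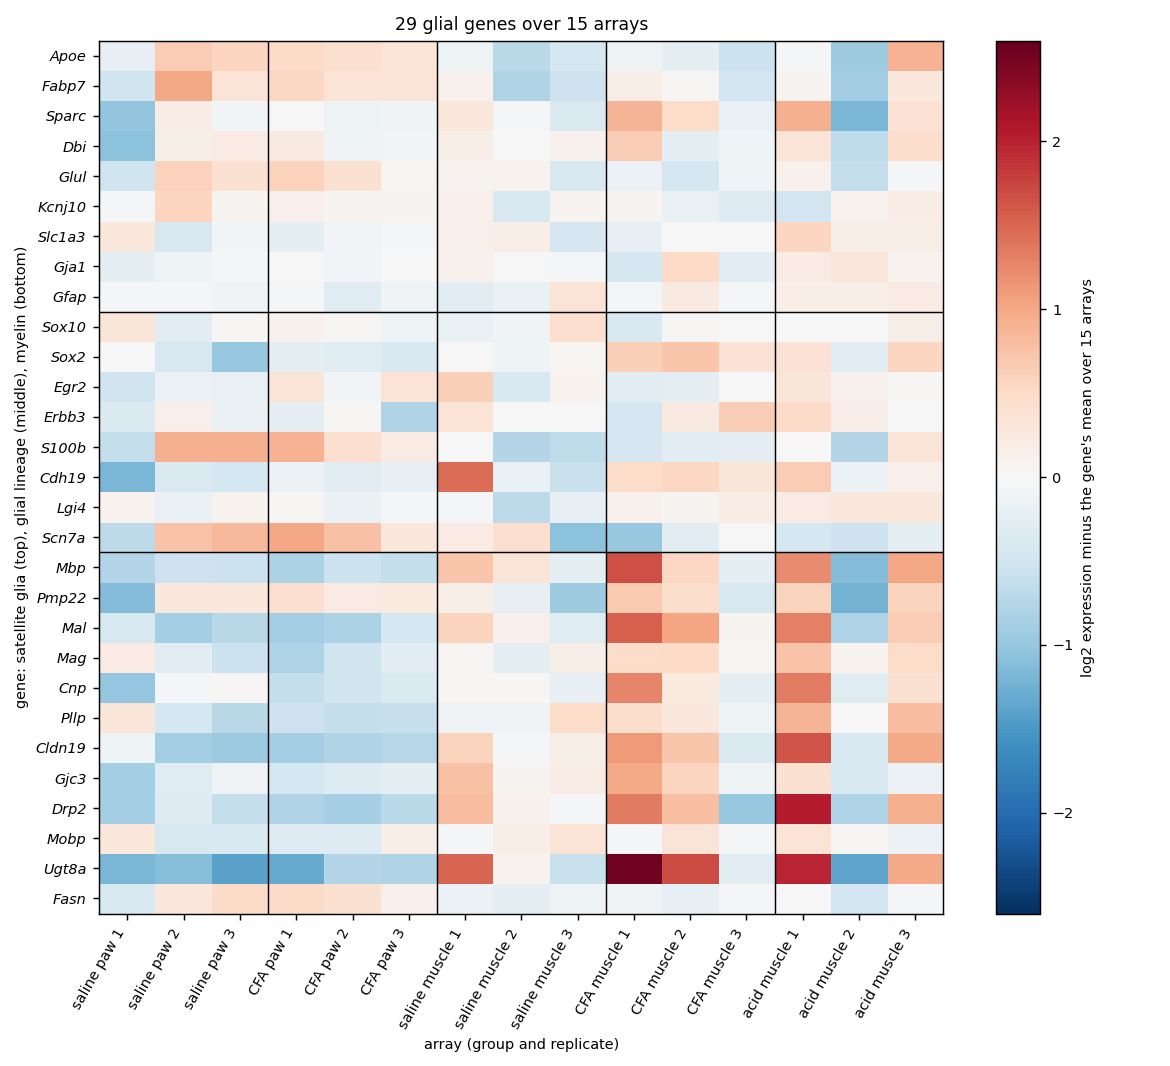
Log2 level of the 29 measured genes (rows, grouped as satellite glia, glial lineage and myelin) on each of the 15 arrays (columns, by group), minus the mean of the gene over the 15 arrays. Most myelin genes stand above their mean on acid muscle replicate 1 and CFA muscle replicate 1 and near or below it on the paw arrays.

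The first question was whether glial RNA differed between skin and muscle neurons. After CFA, 3 of the 29 genes were lower in paw than in muscle neurons: Mal, Mag and Sox2. After saline, 0 of 29 passed. Over all genes, 6.41% passed between CFA paw and CFA muscle (5.75% higher and 0.667% lower in paw), and 2.04% between saline paw and saline muscle (1.87% and 0.171%; limma, Benjamini-Hochberg over 19938 genes, threshold 0.05). The direction over the myelin genes was the same in both comparisons, which share no array: 10 of 12 differences were negative and 2 positive in each, beside 43.8% of all genes positive after CFA and 47.7% after saline. The myelin medians were −0.90 after CFA and −0.58 after saline, beside −0.041 and −0.016 over all genes. The satellite glia genes had medians of 0.035 and −0.0074, which were −0.18 and −0.34 under cyclic loess or quantile normalization.

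Mal, a lipid-raft protein of compact myelin, was at 4.65, 4.70 and 5.07 on the CFA paw arrays and at 7.07, 6.55 and 5.60 on the CFA muscle arrays. Every CFA muscle array lay above every CFA paw array. The means were 4.81 ± 0.231 and 6.41 ± 0.748 (SD, n = 3), and Mal was 3.03-fold lower in paw (log2 difference −1.60, SE 0.447, limma adjusted p = 0.0470). Mag, the adhesion protein between the myelin sheath and the axon, was at 2.19, 2.46 and 2.71 in CFA paw and at 3.47, 3.50 and 3.01 in CFA muscle. The groups did not overlap, and 1 of the CFA paw values was under the dim limit, so the size of the difference is uncertain (−0.88, SE 0.227, limma adjusted p = 0.0327). Sox2, a transcription factor of immature glia that is also expressed by satellite glia, was at 3.39, 3.29 and 3.22 in CFA paw and at 4.24, 4.34 and 3.99 in CFA muscle. Again the groups stood apart, with a 1.86-fold lower level in paw (−0.89, SE 0.236, limma adjusted p = 0.0368).

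These calls lie close to the threshold. Over 25 alternatives in processing the difference of Mag ran from −1.03 to −0.64 (limma adjusted p 0.00176 to 0.295), that of Sox2 from −0.99 to −0.81 (0.00160 to 0.197) and that of Mal from −2.07 to −1.26 (0.00274 to 0.211). The number of genes called of the 29 was 0 without CFA paw replicate 1, CFA paw replicate 2, CFA muscle replicate 1 or CFA muscle replicate 2. It was 1 without CFA paw replicate 3, saline muscle replicate 1 or saline muscle replicate 2. It was 2 without saline paw replicate 2, saline paw replicate 3, saline muscle replicate 3 or acid muscle replicate 3, 5 without CFA muscle replicate 3, and 6 without saline paw replicate 1 or acid muscle replicate 2. Without saline paw replicate 1, 2 of the 6 were higher in paw (S100b and Scn7a) and 4 were lower. The number over all 19938 genes moved as well, from 527 without CFA muscle replicate 1 to 2588 without saline paw replicate 1.

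The 250 bases before the outermost gene start are shown for the 3 genes that passed, and 220 bases for Ugt8a, whose difference was the largest among the 29 (RefSeq, GRCm38.p6, read 5′ to 3′ on the strand of the gene). The RefSeq entry of Ugt8a begins inside the gene's annotated span, and the bases within that span are left out. Sox10 and Sox2 belong to the SOX factors and Egr2 to the EGR factors, and the capitals mark matches to the SOX letters ACAAAG or ACAATG and to the EGR letters GTGGGNG, searched on both strands, with no overlap between the motifs.
Mal: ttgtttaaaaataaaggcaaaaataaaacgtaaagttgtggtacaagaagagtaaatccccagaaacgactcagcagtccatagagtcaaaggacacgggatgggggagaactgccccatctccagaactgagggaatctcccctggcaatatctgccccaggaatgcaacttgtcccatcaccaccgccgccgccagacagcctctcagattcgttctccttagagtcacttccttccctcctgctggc
Mag: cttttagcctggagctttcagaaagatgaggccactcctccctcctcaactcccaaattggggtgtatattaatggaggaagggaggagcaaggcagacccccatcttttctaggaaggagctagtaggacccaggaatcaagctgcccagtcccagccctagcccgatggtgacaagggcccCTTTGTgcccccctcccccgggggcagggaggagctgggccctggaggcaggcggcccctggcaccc
Sox2: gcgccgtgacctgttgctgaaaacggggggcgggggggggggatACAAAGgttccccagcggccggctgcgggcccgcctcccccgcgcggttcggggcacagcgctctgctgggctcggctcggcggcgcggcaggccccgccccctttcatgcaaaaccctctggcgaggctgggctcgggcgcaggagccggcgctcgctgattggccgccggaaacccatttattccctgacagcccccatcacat
Ugt8a: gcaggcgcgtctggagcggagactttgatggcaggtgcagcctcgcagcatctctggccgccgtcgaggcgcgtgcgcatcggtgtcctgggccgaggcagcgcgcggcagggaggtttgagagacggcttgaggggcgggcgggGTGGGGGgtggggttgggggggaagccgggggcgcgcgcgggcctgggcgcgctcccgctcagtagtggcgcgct
They lie at chr2:127656696-127656945 (Mal, minus strand), chr7:30914923-30915172 (Mag, minus strand, 1 of 3 entries), chr3:34649745-34649994 (Sox2, plus strand) and chr3:125938683-125938902 (Ugt8a, minus strand). The Mal stretch held 0 matches, Mag and Sox2 held 1 SOX match each and Ugt8a held 1 EGR match. Among 32851 RefSeq stretches of 250 bases before a start, 25.2% held a SOX match and 28.1% an EGR match. RefSeq entries were matched for 24 of the 30 genes, with 37 stretches, of which 16.2% and 37.8% held one. The arrays measured RNA only, so a match is a description of these letters.

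The other myelin genes gave large differences with wide errors. Ugt8a was at 2.34, 2.89 and 2.87 in CFA paw and at 6.19, 5.36 and 3.37 in CFA muscle. All 3 CFA muscle values lay above the paw values, but they were far apart from each other, and the difference of −2.27 (SE 0.773) did not pass (limma adjusted p = 0.101). Mbp, myelin basic protein, was at 4.56, 4.83 and 4.76 in CFA paw and at 7.05, 5.92 and 5.13 in CFA muscle (−1.32, SE 0.529, limma adjusted p = 0.167). Cldn19, the claudin of Schwann cell tight junctions, was at 3.70, 3.80 and 3.84 against 5.70, 5.31 and 4.21 (−1.29, SE 0.444). In both of these genes the groups stood apart and CFA muscle replicate 3 was the muscle array nearest to the paw level. Drp2, a dystrophin relative at the outer membrane of myelinating Schwann cells, overlapped, since CFA muscle replicate 3 at 3.44 lay below the 3 CFA paw arrays at 3.65, 3.58 and 3.73. Its other CFA muscle values were 5.79 and 5.21 (−1.16, SE 0.605, limma adjusted p = 0.295).

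Pllp, a proteolipid of myelin membrane, differed by −0.79 (SE 0.276), the Schwann cell connexin Gjc3 by −0.82 (SE 0.288), Cnp, an enzyme of non-compact myelin, by −0.93 (SE 0.405) and Mobp by −0.27. The adjusted p of these 4 in limma lay between 0.108 and 0.512. The exceptions to the direction were Pmp22, a tetraspan protein of peripheral myelin, at 0.06, and Fasn, the fatty acid synthase, at 0.46 (SE 0.203, limma adjusted p = 0.210), whose signs turned under another scaling of the arrays. Under cyclic loess and quantile normalization Pmp22 passed as lower in CFA paw. Of the 12 myelin genes, 8 had every CFA paw array below every CFA muscle array and 1 had the reverse, beside 17.1% and 18.9% of all genes. In the plot of the myelin genes by array, the paw arrays lie closer together than the muscle arrays in Ugt8a, Drp2, Mbp, Mal, Cldn19, Cnp and Gjc3. In Mag and Pllp they do not, with ranges of 1.01 and 1.03 over the paw arrays and 0.996 and 0.993 over the muscle arrays. Saline paw replicate 1 was the highest paw array in both genes.

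**Figure D2:**
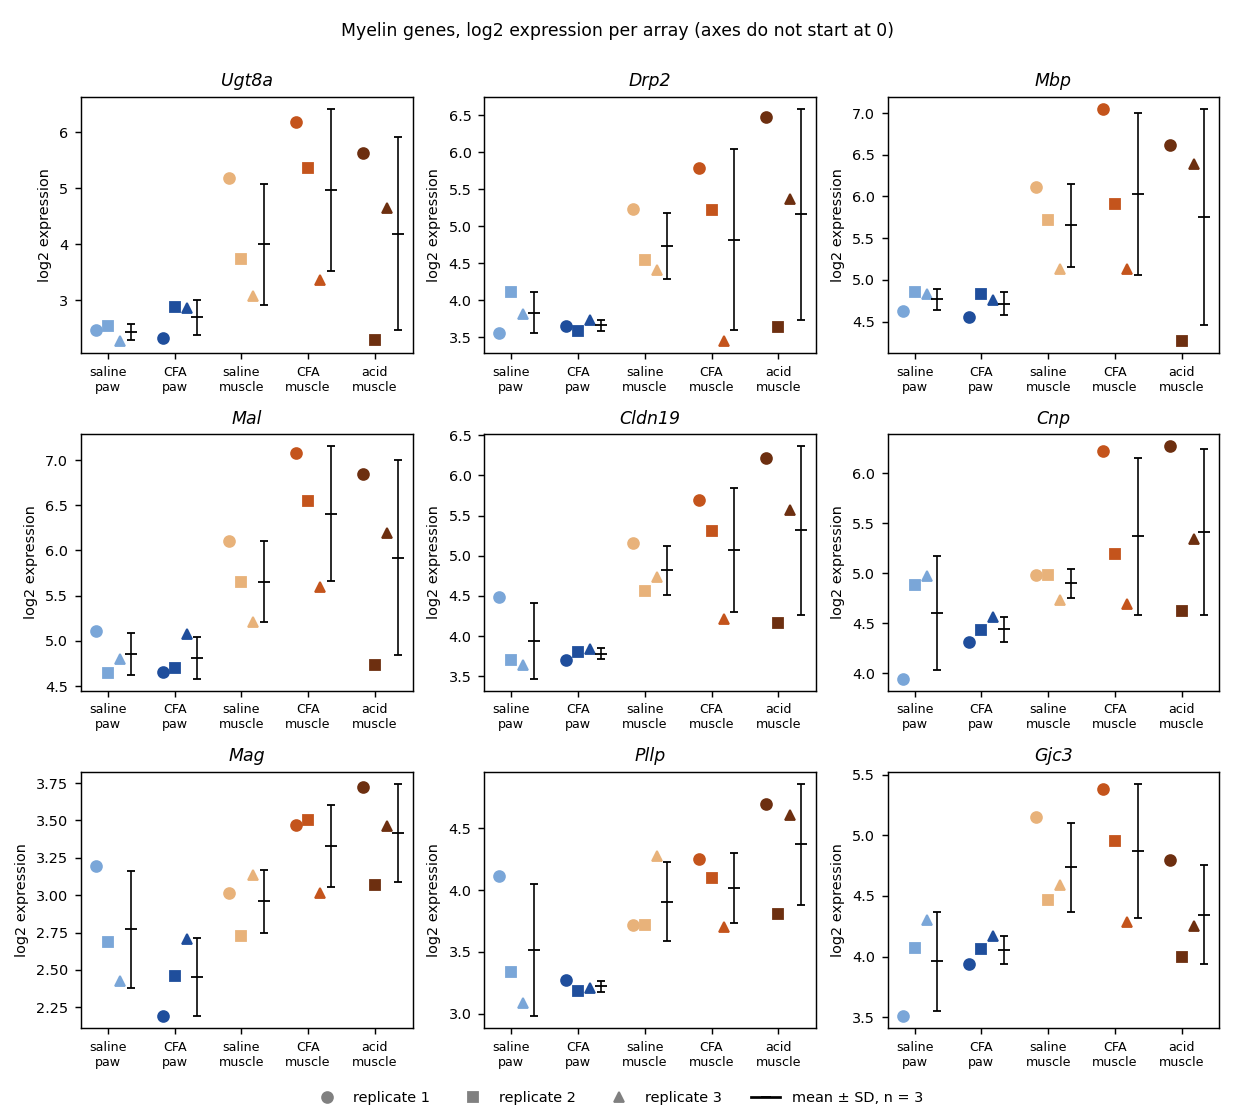
Log2 level of 9 myelin genes on each array (points, with a marker for each replicate number) by group, with the mean ± SD of the 3 arrays in black. In Ugt8a the 6 paw arrays sit between 2.27 and 2.89 and the 9 muscle arrays between 2.29 and 6.19.

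After saline, the same comparison gave smaller differences. Ugt8a was at 2.47, 2.54 and 2.27 in saline paw and at 5.17, 3.74 and 3.07 in saline muscle, with no overlap (−1.57, SE 0.773, limma adjusted p = 0.326). Mbp was at 4.62, 4.86 and 4.83 against 6.11, 5.72 and 5.13, and Mal at 5.10, 4.65 and 4.80 against 6.10, 5.65 and 5.21. Both stood apart, with differences of −0.88 and −0.81 that did not pass. Gjc3 had the smallest adjusted p of the 29 genes, at 3.51, 4.07 and 4.30 against 5.15, 4.46 and 4.59 (−0.77, SE 0.288, limma adjusted p = 0.188). Every saline paw array lay below every saline muscle array for 6 of the 29 genes, all of myelin (Mbp, Mal, Cldn19, Gjc3, Drp2 and Ugt8a), and above for 0, beside 7.06% and 8.11% of all genes. Without saline paw replicate 1 the number called was 4, with Fabp7, Fasn and S100b higher and Sox2 lower in paw, beside 3824 of 19938 genes. With array weights, which ran from 0.148 for that array to 7.18 for saline paw replicate 3, it was 14 (6 higher and 8 lower in paw), beside 7379 genes.

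The sign of the myelin differences held under every scaling tried for most of the genes. With the deposited values, centring on medians, cyclic loess, quantile normalization and the array SD as a covariate, Mbp, Mal, Cnp, Pllp, Cldn19, Gjc3, Drp2 and Ugt8a were negative in both comparisons. The myelin median ran from −0.97 to −0.55 after saline and from −1.29 to −0.82 after CFA. The other 4 turned under at least 1 scaling in at least 1 comparison: Pmp22 and Fasn in both, Mag after saline (0.010 with the array SD) and Mobp after CFA (0.14 with the array SD).

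**Figure D3:**
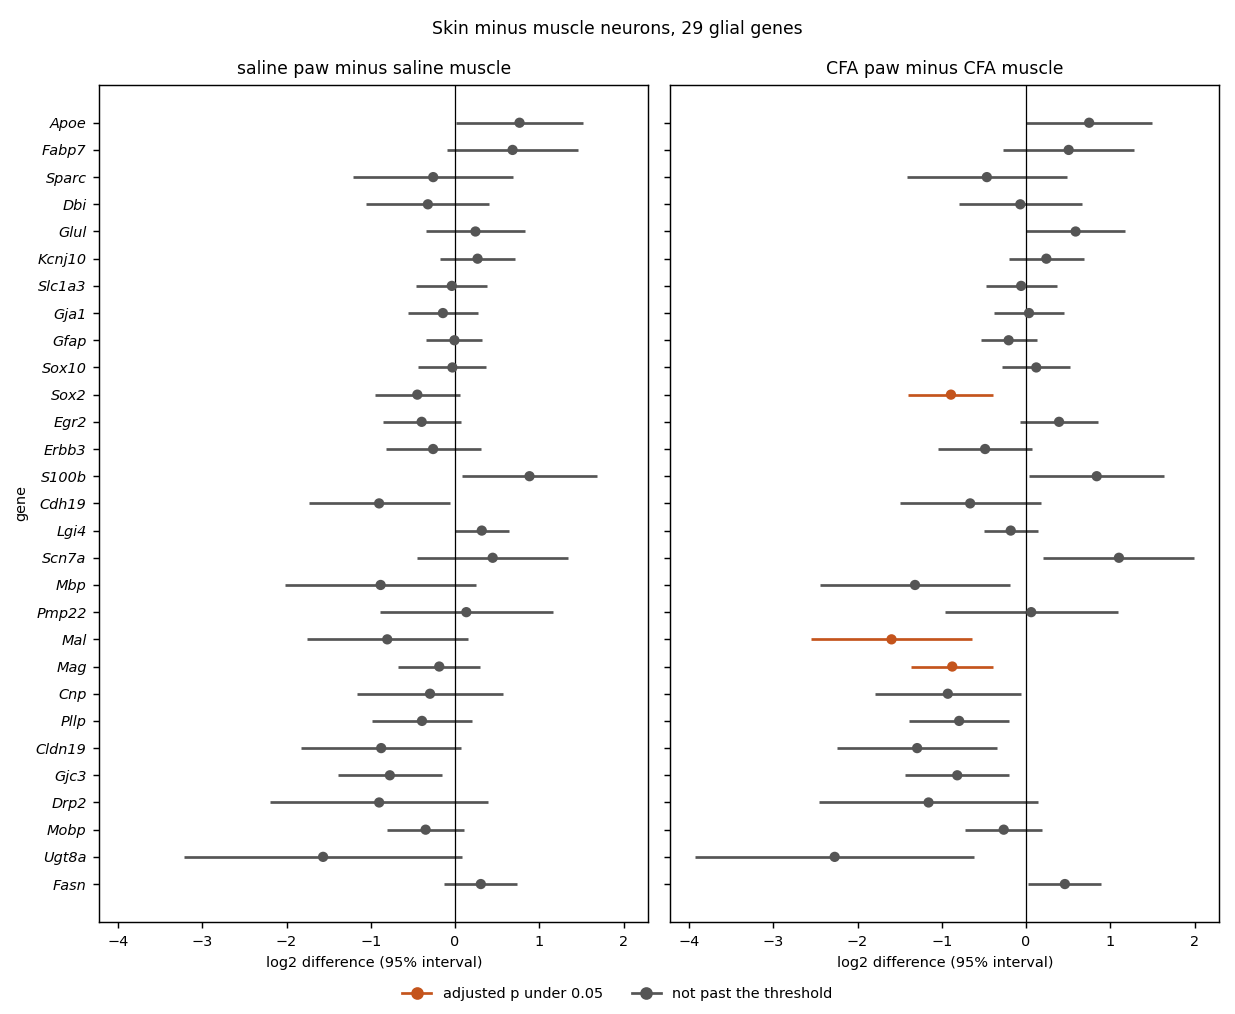
Log2 difference of paw minus muscle for each of the 29 genes, after saline and after CFA, with the 95% interval of the limma fit, and the 3 genes past the threshold in orange (Mag, Sox2 and Mal after CFA). Most myelin genes lie to the left of 0 in both panels, while Apoe, Fabp7, Glul, Pmp22 and Fasn lie to the right here and change sign under another scaling of the arrays.

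With the deposited values, satellite glia genes had no common direction between paw and muscle neurons: 5 of 9 differences were positive after CFA and 4 of 9 after saline. Under cyclic loess between arrays 3 and 2 were positive, and Dbi, Fabp7 and Sparc passed as lower in CFA paw (Sparc also after quantile normalization). Apoe, the lipid carrier that satellite glia make in large amounts, was at 10.39, 10.31 and 10.25 in CFA paw and at 9.75, 9.62 and 9.32 in CFA muscle. It stood apart, with a difference of 0.75 (SE 0.350, limma adjusted p = 0.240) that was −0.79 under cyclic loess. Glul, which turns glutamate into glutamine, was at 7.24, 7.03 and 6.68 against 6.48, 6.19 and 6.52 (0.59, SE 0.273, limma adjusted p = 0.237), and Fabp7, the fatty acid binding protein of satellite glia, was at 9.94, 9.75 and 9.75 against 9.58, 9.44 and 8.90 (0.51, SE 0.365). Both were also apart, and both changed sign with the scaling. Sparc, a secreted matrix protein, gave −0.47 and stayed negative under the 5 scalings.

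The other satellite glia genes had group means within a narrow range. Kcnj10, the inward-rectifier potassium channel of satellite glia, ran from 3.58 to 4.62 over the 15 arrays, the glutamate transporter Slc1a3 from 2.86 to 3.84, the connexin Gja1 from 3.34 to 4.29 and Gfap from 2.24 to 2.89. Dbi, an acyl-CoA binding protein, ran from 5.83 on saline paw replicate 1 to 7.53 on CFA muscle replicate 1. In the saline comparison, Apoe was at 9.68, 10.55 and 10.44 in paw and at 9.76, 9.19 and 9.42 in muscle, where saline paw replicate 1 lay inside the muscle range (0.77, SE 0.350, limma adjusted p = 0.283; −0.39 after quantile normalization).

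**Figure D4:**
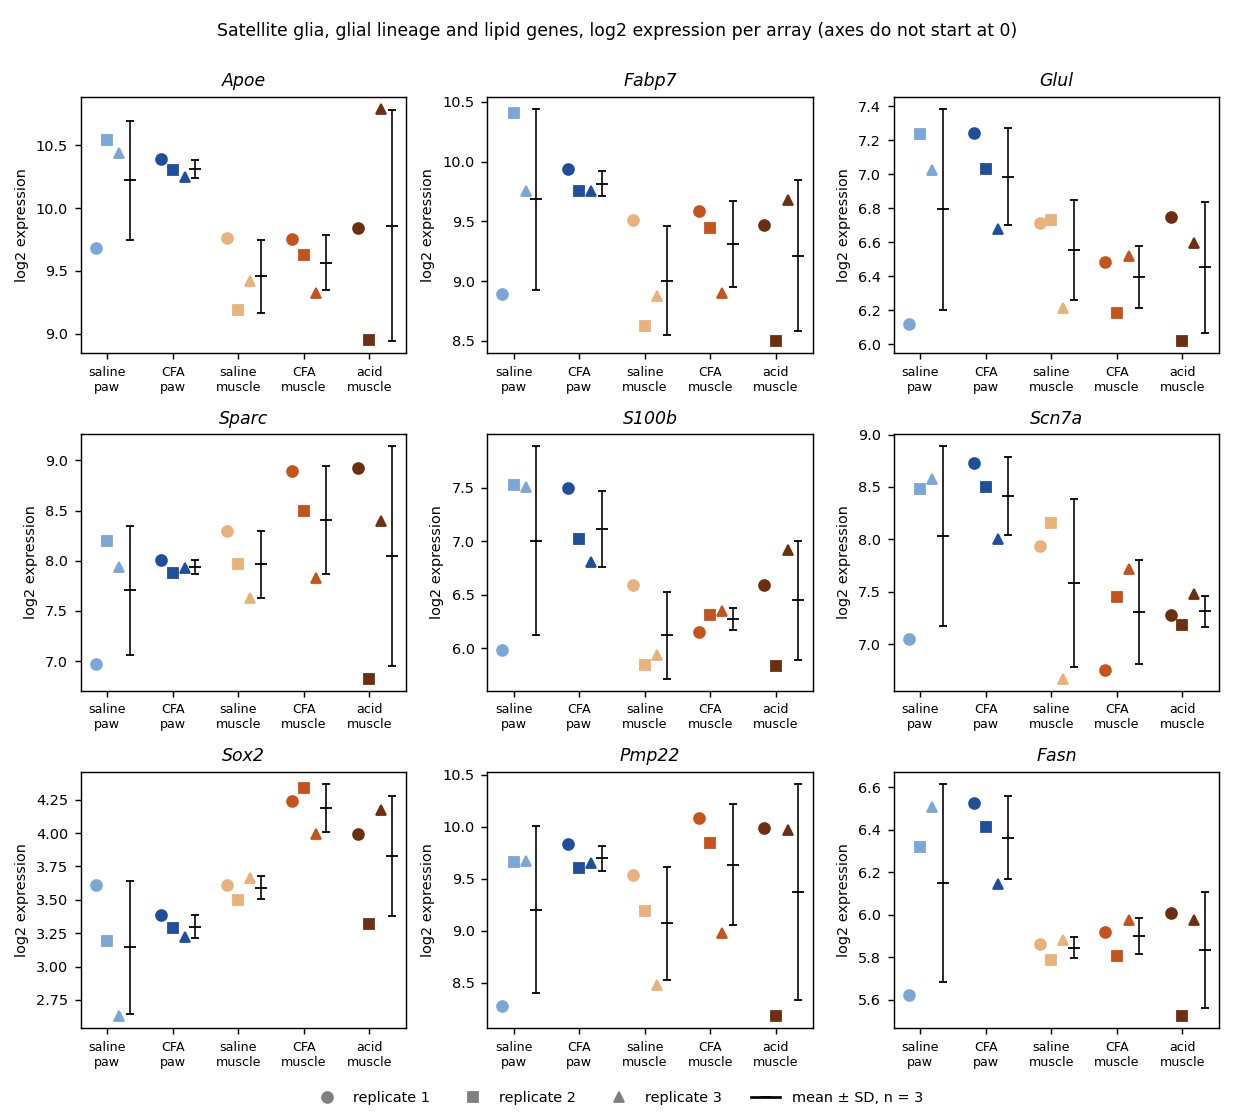
Log2 level of 9 genes of satellite glia, glial lineage and lipid or myelin metabolism on each array (points, with a marker for each replicate number) by group, with the mean ± SD of the 3 arrays in black. Saline paw replicate 1 is the lowest of the 6 paw arrays in Apoe, Fabp7, Glul, Sparc, S100b, Scn7a, Pmp22 and Fasn, and the highest in Sox2.

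Among the glial lineage genes, Sox10, the factor that defines the lineage, ran from 3.62 to 4.44 and showed no difference between groups that passed. S100b, a calcium-binding protein of glia that large sensory neurons also make, was at 5.98, 7.52 and 7.51 in saline paw and at 6.59, 5.84 and 5.93 in saline muscle. Saline paw replicate 1 was again within the muscle range, and the difference of 0.88 (SE 0.374, limma adjusted p = 0.243) was −0.050 with the array SD as a covariate. Scn7a, a sodium-level sensor of glia and neurons, was at 8.73, 8.50 and 8.002 in CFA paw and at 6.76, 7.45 and 7.72 in CFA muscle (1.10, SE 0.419, limma adjusted p = 0.144). That difference stayed positive under the 5 scalings (0.021 at the lowest), and the difference after saline did not.

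Cdh19 was at 1.67, 2.47 and 2.39 in saline paw, and at 4.30, 2.67 and 2.26 in saline muscle. Its difference rested on saline muscle replicate 1 (−0.90, SE 0.391, limma adjusted p = 0.257; −0.29 without that array). Erbb3, the neuregulin receptor of Schwann cells, ran from 3.40 to 4.83 and was negative under the 5 scalings in both comparisons, as were Sox2 and Cdh19. Over the 8 lineage genes the median was −0.030 after CFA (−0.20 to 0.055 over the scalings) and −0.15 after saline (−0.43 to −0.11).

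The most pronounced pattern in the myelin genes lay between arrays of one muscle group. Ugt8a was at 5.63, 2.29 and 4.65 in acid muscle, Drp2 at 6.48, 3.63 and 5.36, and Mbp at 6.61, 4.26 and 6.39. Acid muscle replicate 2 lay within the range of the paw arrays for Ugt8a and Drp2 and below it for Mbp, and the other two were far above it. Of the 12 myelin genes, 12 were highest on acid muscle replicate 1 within their group and 11 were lowest on acid muscle replicate 2, beside 28.0% and 33.4% of all genes. In CFA muscle, 9 were highest on replicate 1 and 10 were lowest on replicate 3, beside 35.0% and 28.8%. In saline muscle, 8 were highest on replicate 1, beside 30.6%. After quantile normalization or cyclic loess these counts were 12, 10, 10, 10 and 7. In the satellite glia genes the acid muscle arrays had 3 of 9 highest on replicate 1 and 5 lowest on replicate 2. Those 5 were the brighter genes Apoe, Fabp7, Sparc, Dbi and Glul, at 5.83 or more on every array. Kcnj10, Slc1a3, Gja1 and Gfap, at 2.24 to 4.62, did not share that order. A difference between satellite glia and myelin genes on these arrays was not tested.

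Over the 9 muscle arrays the range was 3.90 in Ugt8a, 3.03 in Drp2, 2.79 in Mbp, 2.35 in Mal and 2.05 in Cldn19, and over the 6 paw arrays 0.62, 0.55, 0.30, 0.45 and 0.85 in the same order. Mag, Pllp, Mobp and Fasn went the other way, with a wider range over the paw arrays than over the muscle arrays. In these genes saline paw replicate 1 was an extreme of the paw arrays. It was the highest in Mag (3.20, the others 2.19 to 2.71), Pllp (4.11, the others 3.09 to 3.34) and Mobp (2.85, the others 2.16 to 2.73). In Fasn it was the lowest (5.62, the others 6.15 to 6.52). The median range of the myelin genes was 1.78 in muscle and 0.82 in paw, beside 0.675 and 0.590 over all genes, and that of the satellite glia genes was 0.99 and 0.87. A range over 9 arrays tends to be wider than a range over 6. The median SD within groups was 0.709 in muscle and 0.335 in paw for the myelin genes, and 0.306 and 0.338 for the satellite glia genes. Over all genes it was 0.218 and 0.225. A muscle range over 2 was seen in 5 of 12 myelin genes and in 7 of the 29 (Sparc and Cdh19 being the other two), beside 0.838% of all genes. The order of the neuron markers was in part the same and in part the reverse. Of these 16 markers, 13 were highest on saline muscle replicate 1 and 12 lowest on acid muscle replicate 2, as most myelin genes were, and 14 were lowest on CFA muscle replicate 1, where most myelin genes were highest (beside 30.6%, 33.4% and 40% of all genes). The endothelial and mural markers were highest on replicate 1 of each muscle group, as the myelin median was, with medians of 3.46, 3.34 and 2.93 in saline muscle, 3.87, 3.06 and 3.14 in CFA muscle, and 3.89, 3.04 and 3.01 in acid muscle. Paw arrays had 2.52 to 3.12. The part of neuron, endothelial and mural content in the result was not tested.

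**Figure D5:**
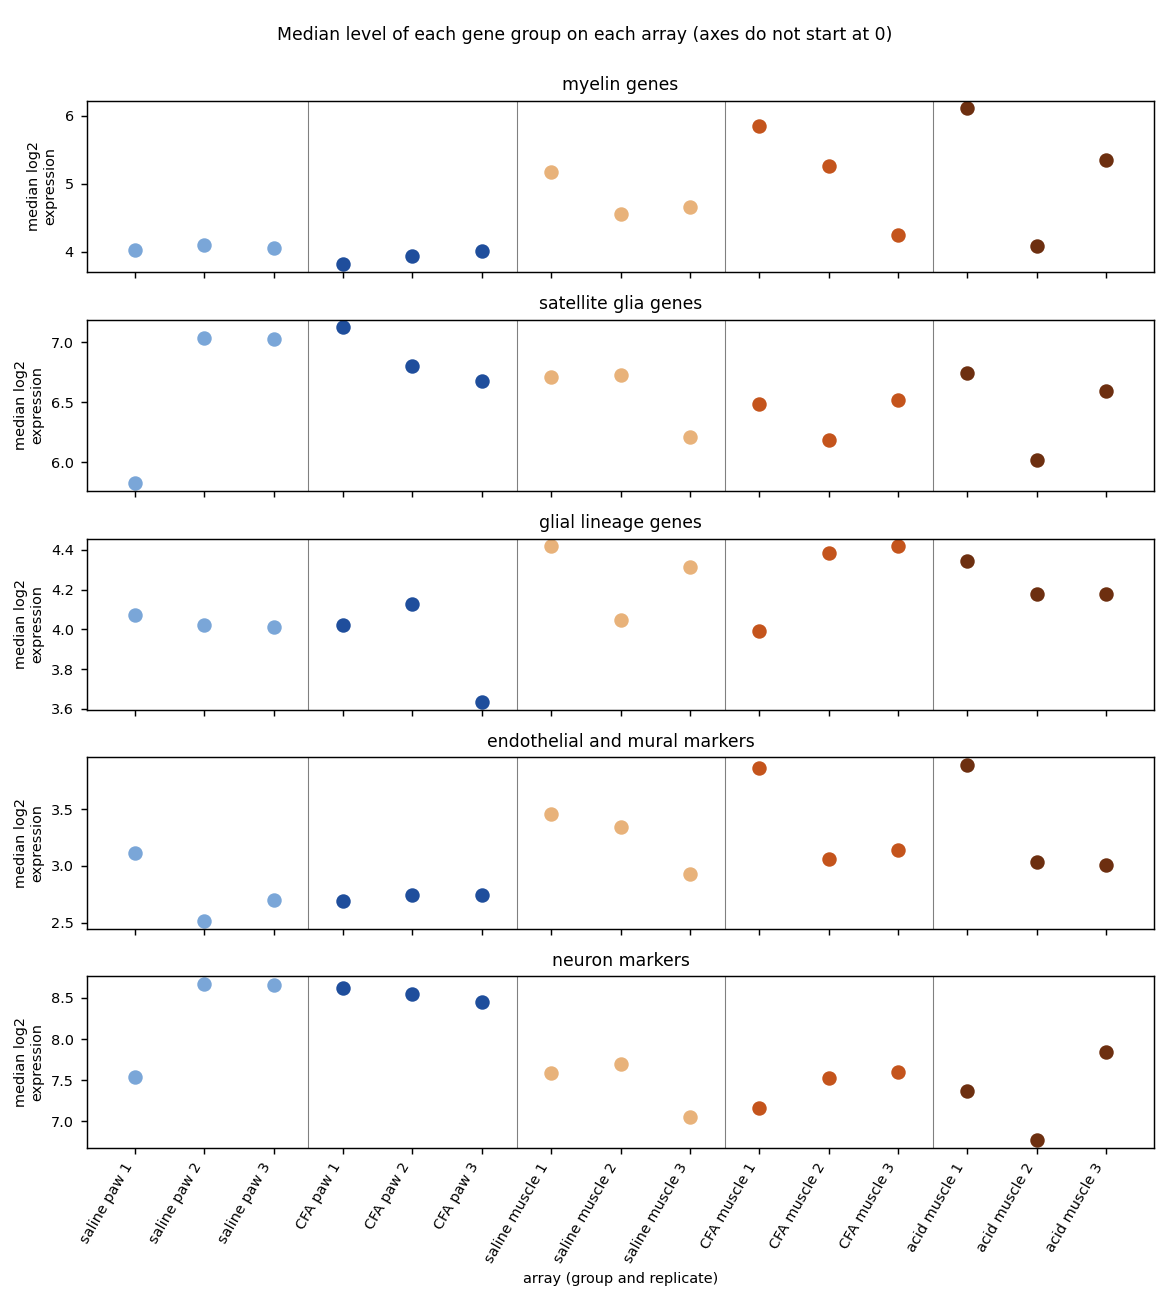
Median log2 level over the measured genes of 5 lists (myelin, satellite glia, glial lineage, endothelial and mural markers, neuron markers) on each array, by group. The myelin median lies between 3.82 and 4.09 on the 6 paw arrays and between 4.08 and 6.11 on the 9 muscle arrays.

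CFA in the paw was compared with saline to ask what inflammation does to skin neurons. For glial genes 0 of 29 passed, as for all genes (0%; 241 genes, 1.21%, had an unadjusted p under 0.05, and 125 passed with array weights). Egr2, the factor that drives myelination, had the smallest p of the 29: it was at 4.33, 4.70 and 4.65 in saline paw and at 5.19, 4.79 and 5.21 in CFA paw. The groups did not overlap (0.50, SE 0.217, limma adjusted p = 1). The next were Mag at −0.32 (SE 0.227), Cdh19 at 0.45 (SE 0.391) and Pllp at −0.29 (SE 0.276), each with adjusted p = 1 in limma. Without saline paw replicate 1, Egr2 was at 0.39, Mag at −0.10, Cdh19 at 0.19 and Pllp at 0.010. Of the 29, 2 (Egr2 and Cdh19) had CFA paw arrays all above the saline paw arrays, and none had them all below, beside 1.73% and 2.99% of all genes. The saline paw mean of Cdh19 was under the dim limit. The median was 0.093 over the 29 genes, −0.048 over the myelin genes and −0.011 over all genes. It was −0.087 over the 29 without saline paw replicate 1.

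CFA in the muscle was compared with saline in the same way, and 0 of 29 glial genes passed (0% of all genes; 518 genes, 2.6%, had an unadjusted p under 0.05). Lgi4, a protein that Schwann cells secrete and need for myelination, was at 3.01, 2.39 and 2.84 in saline muscle and at 3.17, 3.14 and 3.25 in CFA muscle. All CFA values were above the saline values, of which 1 was under the dim limit (0.44, SE 0.150, limma adjusted p = 1). Sox2 was at 3.61, 3.50 and 3.67 against 4.24, 4.34 and 3.99, with no overlap (0.60, SE 0.236, limma adjusted p = 1). These 2 were the only genes of the 29 that stood apart, beside 3.63% of all genes above and 4.1% below. Mal (0.75, SE 0.447) and Mag (0.37, SE 0.227) followed. Of the 12 myelin genes 11 had a positive difference, beside 47.1% of all genes, with a median of 0.31. That median was 0.019 without CFA muscle replicate 1 and 0.73 without CFA muscle replicate 3.

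Acid in the muscle gave a like picture, with 0 of 29 genes past the threshold (0% of all genes; 568 genes, 2.85%, had an unadjusted p under 0.05). Lgi4 was at 3.27, 3.34 and 3.33 in acid muscle, above all saline muscle arrays, and was the only one of the 29 to stand apart, beside 3.98% of all genes above and 2.94% below (0.57, SE 0.150, unadjusted p = 0.00202, limma adjusted p = 1). Both comparisons use the same saline arrays, so the values of Lgi4 in them are not separate evidence. Mag (0.46), Pllp (0.46) and Slc1a3 (0.32) had the next smallest p. The differences of 9 of the 12 myelin genes were positive, beside 53.7% of all genes. Their median of 0.29 turned to −0.15 without acid muscle replicate 1 and was 0.85 without acid muscle replicate 2.

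CFA muscle and acid muscle did not differ in any of the 29 genes past the threshold (0% of all genes; 626 genes, 3.14%, had an unadjusted p under 0.05). Gjc3 had the smallest p, at 5.38, 4.95 and 4.29 in CFA muscle and 4.79, 3.99 and 4.25 in acid muscle, which overlapped (0.53, SE 0.288, limma adjusted p = 1.00). Slc1a3 (−0.35), Egr2 (−0.33) and Lgi4 (−0.13) had every CFA array below every acid array, and none had the reverse, beside 5.23% and 2.92% of all genes. Sox2 differed by 0.36. Of the 12 myelin genes 7 had a positive difference, beside 43.9% of all genes.

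The CFA effect in muscle was set against that in paw in one model, as the difference of the differences. Again 0 of 29 passed (0% of all genes; 325 genes, 1.63%, had an unadjusted p under 0.05). Egr2 had the smallest p: CFA minus saline was 0.50 in paw and −0.29 in muscle, a difference of −0.79 (SE 0.306, unadjusted p = 0.0218, limma adjusted p = 1.00). Lgi4 (0.50, SE 0.213), Mag (0.69, SE 0.321) and Sox2 (0.44, SE 0.333) had the opposite sign. The myelin median was 0.41, with 10 of 12 positive, beside 49.8% of all genes. It was 0.037 without CFA muscle replicate 1 and 0.85 without CFA muscle replicate 3.

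Other genes of glia and myelin were read from a list of 31, of which 29 were measured. In the treatment comparisons 0 passed. With the deposited values, Cd9, a tetraspanin of Schwann cells and many other cells, was higher in paw than in muscle neurons. It was at 8.98 ± 0.530 in saline paw and 7.50 ± 0.513 in saline muscle (SD, n = 3). The difference of Cd9 was 1.48 after saline (SE 0.305, limma adjusted p = 0.0247) and 1.43 after CFA (limma adjusted p = 0.0124). Its values under the other scalings are not given here. Gldn, the glial protein that gathers sodium channels at nodes of Ranvier, was lower in CFA paw than in CFA muscle (2.33 ± 0.234 against 3.62 ± 0.702; −1.28, SE 0.311, limma adjusted p = 0.0244), with the paw mean under the dim limit. The median of the list was −0.029 after saline (−0.31 to 0.0074 over the scalings) and −0.14 after CFA (−0.38 to −0.054).

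Cholesterol and fatty acid synthesis, which supplies myelin lipid but runs in all cells, was read from 15 of 18 listed genes. With the deposited values, Dhcr7, the last enzyme of cholesterol synthesis, was higher in CFA paw than in CFA muscle (6.98 ± 0.0528 against 5.89 ± 0.407). The difference of Dhcr7 was 1.09 (SE 0.275, limma adjusted p = 0.0287), and its values under the other scalings are not given here. The medians of the list, 0.32 after saline and 0.41 after CFA, turned to −0.38 and −0.36 under cyclic loess, so no direction is given for it. Between CFA paw and saline paw 14 of the 15 differences were positive, beside 47.1% of all genes, and 0 passed. Within saline paw, 14 of the 15 genes were lowest on replicate 1, beside 39.7% of all genes. The list median was 5.67 on that array, 6.75 on saline paw replicates 2 and 3, and 6.42 to 6.75 on the CFA paw arrays. The part of that array in the 14 positive differences was not tested.

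Markers of other cell types also differed in value between paw and muscle arrays. Of the 16 neuron markers, 6 passed as higher in saline paw than in saline muscle and 12 in CFA paw than in CFA muscle, beside 1.87% and 5.75% of all genes. Their medians were 1.39 and 1.60, and 0.37 and 0.22 under cyclic loess. Within saline paw, all 16 were lowest on replicate 1, beside 39.7% of all genes. All 10 endothelial and mural markers were lower in value in paw in both comparisons (medians −0.41 and −0.55), and 0 passed (smallest limma adjusted p 0.178 and 0.0666). Over all genes, 47.7% of the differences were positive after saline and 43.8% after CFA. Of the defining markers, Cdh5 had means under the dim limit in both paw groups and of 2.84 to 3.24 in the muscle groups, and Pecam1 had 2.75 in both paw groups and 3.17 to 3.27 in the muscle groups. The macrophage receptor Csf1r had means of 2.73 to 2.96, the macrophage gene Cx3cr1 was under the dim limit in 3 of the 5 groups, and fibroblast markers had array medians of 2.84 to 4.08. The part of these cells and of neuron content in the glial differences was not tested.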

How the data were processed

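Affymetrix whole-transcript arrays measured RNA of sorted sensory neurons in 15 samples, whose 5 groups come from the sample titles. The values deposited by the authors are log2 expression per probe set. RMA and Partek are named, without a version, in the submitters' processing notes. The log base is not given in the sources used here, and base 2 was inferred from the values' range.

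Values were used as deposited. Of 35556 probe sets, 21789 had 1 gene symbol. Where a gene had several, the brightest on average over the arrays was kept, for 19938 genes in all. No dim gene was removed.

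Group means were fitted to all 15 arrays in R 4.3.3 with limma 3.58.1 (10 residual degrees of freedom, prior 4.32), and two-sided p-values were adjusted by Benjamini-Hochberg over all genes, with a threshold of 0.05. The number of arrays limits the precision (median SE 0.186). The fit was also run on simulated data with independent noise for each gene and array. Such data lack the array-wide differences described above, so that run cannot show how the fit deals with them.

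The genes followed, the lists and the rules were chosen with earlier results of these data known. By rule, the text names the genes past the threshold in a comparison or, where fewer than 4 pass, the 4 with the smallest p, with passing genes of the other lists and defining markers. Genes followed that are named outside this rule were chosen after their values were seen. The alternatives were median centring, cyclic loess, quantile normalization, the array SD as a covariate, array weights, leaving out dim genes, fitting only the arrays compared, a robust prior with an intensity trend, the mean of a gene's probe sets, the replicate number as a block, and leaving out each array.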

Additional observations from a re-analysis of the deposited data

How the results depend on the processing

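The 29 genes, with the counts over all genes, give 77 results over 7 comparisons. With a filter on dim genes, an intensity trend, the mean of a gene's probe sets, or the replicate number as a block, 77 of the 77 were classed as unchanged. For a single gene this means the same sign and the same side of the threshold. A count was classed so if it stayed within a set factor, and a median if it moved by less than the SD between arrays of a group. Array weights changed 27 of them. Over all genes, same-numbered arrays did not deviate together in a common direction. The correlations were −0.238, 0.185 and −0.327 for CFA paw and saline paw, and −0.229, 0.0519 and −0.126 for CFA muscle and saline muscle. For acid muscle and saline muscle they were 0.252, −0.0866 and −0.196. Most myelin genes were nevertheless highest on replicate 1 in each muscle group, and whether the numbers mark a pairing was not tested for them. With the replicate block, Mag, Mal and Sox2 had limma adjusted p of 0.0450, 0.0356 and 0.0458 between CFA paw and CFA muscle. The number of all genes called there was 1144 with the block and 1279 without.

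Between CFA paw and CFA muscle, 3 of the 29 genes were called as reported, 0 with median centring, 6 with cyclic loess, 0 with the array SD as a covariate, 12 with only the arrays compared, 13 with array weights, and 0 to 6 when leaving out single arrays. The 3 as reported and the 6 with cyclic loess were all lower in paw, and Mag was not among those 6. The 12 were 5 higher and 7 lower in paw, and the 13 were 5 higher and 8 lower. Between saline paw and saline muscle, 0 were called as reported, 14 with array weights, and 0 to 4 when leaving out single arrays. The cause was not tested. The median over the 29 genes between CFA paw and CFA muscle was −0.762 with cyclic loess. That between CFA paw and saline paw was −0.0146 with cyclic loess, −0.0203 with quantile normalization, −0.0125 with the array SD, −0.0169 with array weights and −0.0869 to 0.102 when leaving out single arrays. Over the myelin genes it was −0.120 with the array SD and −0.162 to 0.0303 when leaving out single arrays. The myelin median between saline paw and saline muscle was −0.930 with cyclic loess, −0.973 with quantile normalization and −0.884 with the array SD.

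Signs turned in these results, with the cause not tested. Between saline paw and saline muscle, Apoe, Fabp7 and Scn7a were −0.335, −0.343 and −0.318 with cyclic loess and −0.392, −0.398 and −0.286 with quantile normalization. With the array SD, S100b was −0.0501, Mag 0.0104, Fabp7 −0.0826 and Scn7a −0.462. Cnp was 0.00494 with array weights and −0.483 to 0.0318 when leaving out single arrays (positive without saline paw replicate 1), and Scn7a was −0.0122 to 0.939 (negative without saline muscle replicate 3). Between CFA paw and CFA muscle, Apoe and Fabp7 were −0.792 and −0.924 with cyclic loess, −0.509 and −0.686 with quantile normalization, and −0.0976 and −0.406 with the array SD, which also gave −0.274 for S100b. Pllp between CFA paw and saline paw was 0.0883 with array weights and −0.503 to 0.0101 when leaving out single arrays (positive without saline paw replicate 1).

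Counts over all genes moved more. Between saline paw and saline muscle 407 genes were called as reported (373 higher and 34 lower in paw), 199 with median centring, 0 with only the arrays compared, 7379 with array weights and 51 to 3824 when leaving out single arrays. The split was 265 and 161 with cyclic loess, 213 and 132 with quantile normalization and 164 and 206 with the array SD. Between CFA paw and CFA muscle 1279 were called as reported (1146 and 133), 695 with quantile normalization (477 and 218), 444 with the array SD (232 and 212), 3209 with only the arrays compared, 4054 with array weights and 527 to 2588 when leaving out single arrays (without CFA muscle replicate 1 and without saline paw replicate 1), and the split was 700 and 292 with cyclic loess. Genes near the dim limit have differences of uncertain size.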
